A study of Sus scrofa with 6 samples.

Results

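The genes described here are 9 genes of oxidative protein folding and glycoprotein quality control in the endoplasmic reticulum (ER), followed in cultured pig (Sus scrofa) granulosa cells under heat. They are the protein disulfide isomerases PDIA3, PDIA4, PDIA6 and P4HB, the lectin chaperones calreticulin (CALR) and calnexin (CANX), the ER reductase DNAJC10, and the oxidases ERO1A and ERO1B. Members were chosen by name, with earlier results of these data known, and matched by exact gene symbol to Ensembl identifiers. All 9 matched 1 identifier each, out of 35670 identifiers in the count table, and all 9 had enough reads to be among the 14242 genes tested. Messenger RNA was sequenced from primary cells of small ovarian follicles, grown in serum-containing medium and harvested with trypsin. Control libraries (n = 3) came from cells kept at 37 °C, and heat libraries (n = 3) from cells held at 42 °C for 6 h. The labels call the samples biological replicates and name no animal or culture for any of them, so p-values measure only the spread between these samples.

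Secreted and membrane proteins acquire their disulfide bonds in the ER. Protein disulfide isomerases form, break and shuffle these bonds through thioredoxin-like domains, and the ERO1 oxidases return the isomerases to their oxidized state by passing electrons to oxygen. Calnexin, which is membrane-bound, and calreticulin, its soluble relative, hold newly made glycoproteins through a glucose-capped sugar chain while PDIA3, bound to either lectin, rearranges their disulfides. When unfolded proteins accumulate, the unfolded protein response raises transcription of many of these genes together with HSPA5, the ER chaperone also called BiP.

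Library totals lay between 18711440 and 22599356 counts in controls and between 20411952 and 29606378 in heat. Levels are given as CPM, counts scaled to library size with TMM factors, which correct for composition. Genes were called with edgeR's quasi-likelihood test at a Benjamini-Hochberg adjusted p below 0.05, and 11.0% of all tested genes were called. The libraries did not fall cleanly into their groups. Across genes, control 1 correlated most with heat 3 (Pearson r of log2 CPM, 0.920), whereas control 2 and 3 (0.990) and heat 1 and 2 (0.991) were each nearly alike. This is a description over genes, which are not independent replicates. Several defining granulosa cell markers were near 0. The FSH receptor gene FSHR lay between 0 and 2.14 CPM and the inhibin gene INHA between 0 and 0.306 CPM, and neither CYP19A1 nor FOXL2 had a matching symbol (not analysed here). Of 12 granulosa markers 10 were matched, and their summed level, between 1373 and 3353 CPM, came mostly from GJA1, CDH2 and INHBA, which other cells also express. NR5A2 lay between 7.76 and 14.3 CPM and INHBB between 2.45 and 10.2 CPM. All 8 stromal fibroblast markers had reads. Their sum, carried by the collagen transcripts, was 59118, 7422 and 6699 CPM in control 1, 2 and 3 and 87926, 79385 and 28083 CPM in heat 1, 2 and 3. All 6 smooth muscle markers had reads as well, with a sum between 11079 and 11474 CPM in controls and between 7312 and 16295 CPM in heat, highest in heat 3. Leukocyte markers summed to 34.1 and 68.6 CPM in control 2 and 3 and to between 1.31 and 4.39 CPM elsewhere, with CD3E at 0. Sums for theca, endothelial, ovarian surface and oocyte markers reached at most 99.7, 11.2, 13.995 and 20.2 CPM in any library, and erythrocyte markers were at or near 0. The theca sum came mostly from CYP11A1, between 29.0 and 69.6 CPM, while CYP17A1, LHCGR and INSL3 were at or near 0. In such bulk samples, fewer cells of a type and less RNA per cell cannot be told apart.

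PDIA4 was the member called by the test. The 9 genes together took 0.575, 0.437 and 0.407% of all counts in the 3 controls. The same sum was 1.03, 1.03 and 0.493% in heat 1, 2 and 3, with heat 3 below control 1. Of the 9, 1 rose, none fell and 8 did not pass, against 6.71% of all tested genes called higher and 4.32% called lower. A p that misses the threshold does not show that a gene was unchanged. At an unadjusted p below 0.05, 4 of 9 members would count (PDIA4, P4HB, PDIA6 and ERO1B), against 33.9% of all genes. The log2 fold change was above 0 in 7 of 9 members, against 52.1% of all genes, and its median was 0.83 over the members and 0.05 over all genes. Every heat library lay above every control for PDIA4, P4HB and ERO1B, as it did for 20.9% of all tested genes, and below every control for DNAJC10, as for 16.8%. Without control 1 the edgeR test called PDIA4, P4HB and PDIA6 higher (19.6% of all genes higher), and without heat 3 it called those and ERO1B (18.4%). Without control 2 or control 3 it called 0 genes in the whole table, and without heat 1 or heat 2 it called 7 and 6 genes, none a member. In these 4 fits between 3159 and 3303 genes, out of 14752 to 15026 tested, had an unadjusted p below 0.05 in edgeR. Of the 9 members, 3 were among them without control 2. In each of the other fits 2 of 9 were, close to the share over all tested genes. Without both control 1 and heat 3, edgeR called 7 members higher and 1 lower (DNAJC10) and left ERO1A uncalled, but that fit called 79.6% of all genes and 41.2% as higher.

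**Figure D1:**
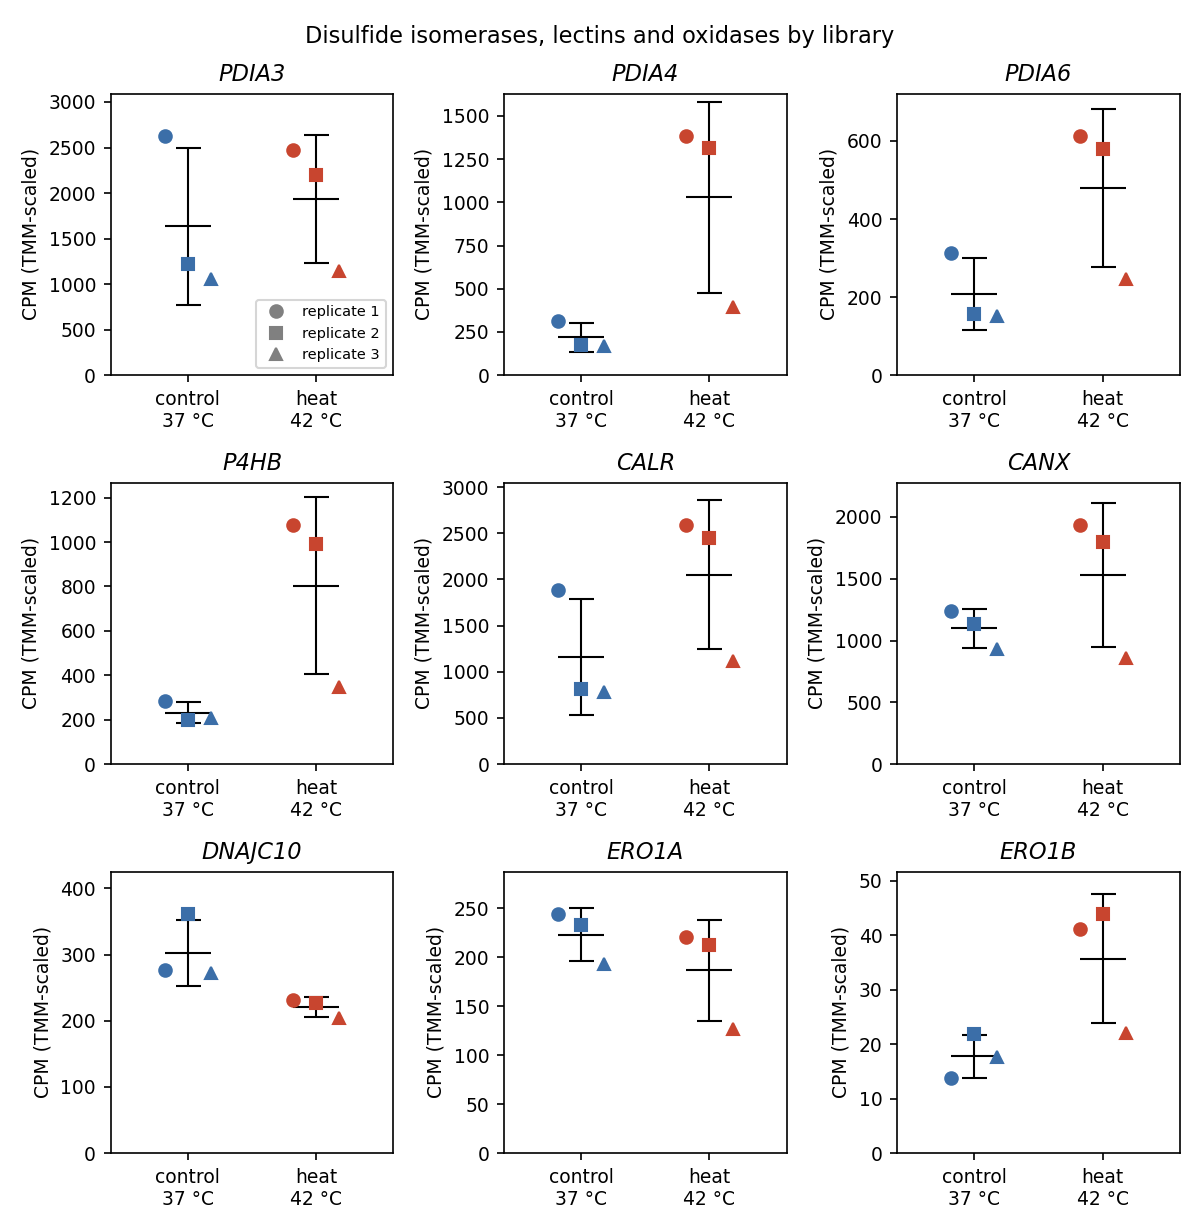
Level of each member (TMM-scaled CPM, linear axis from 0) in the 3 control and 3 heat libraries; symbols mark the replicate number, the wide bar is the mean and the whiskers are 1 SD. Heat 1 and heat 2 sit together at the top for PDIA4, PDIA6, P4HB, CALR, CANX and ERO1B, and heat 3 lies lower. Control 1 stands above the other controls for PDIA3, PDIA4, PDIA6, P4HB and CALR, and by a smaller margin for CANX and ERO1A.

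The isomerase PDIA4, a large family member with several thioredoxin-like domains, had the largest difference of the 9 genes. It stood at 315, 175 and 167 CPM in control 1, 2 and 3 and at 1381, 1317 and 393 CPM in heat 1, 2 and 3. All heat libraries were above all controls, but heat 3 exceeded control 1 by far less than heat 1 and 2 did. The mean went from 219 ± 83.4 to 1030.5 ± 553 CPM (SD, n = 3), a log2 fold change of 2.24 ± 0.58 (SE) with a 95% interval of 0.90 to 3.57 (edgeR adjusted p = 0.0484). That p lies close to the threshold. It was 0.0514 with RLE size factors in place of TMM, and ranged from 4.03e-14 to 0.191 over the 18 alternatives, of which 9 called the gene and all 18 kept its direction. Leaving out control 2, control 3, heat 1 or heat 2 gave adjusted p-values of 0.191, 0.176, 0.172 and 0.162, and leaving out control 1 or heat 3 gave 0.0286 and 0.0111. The gene lies on chromosome 9 at 109260850 to 109280256 (Sscrofa11.1, RefSeq gene span).

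P4HB is protein disulfide isomerase itself, and it is also the beta subunit of collagen prolyl 4-hydroxylase, the enzyme that hydroxylates prolines in collagen chains. Its level was 286, 198 and 210 CPM in control 1, 2 and 3. It was 1075, 990 and 346 CPM in heat 1, 2 and 3, again without overlap and again with heat 3 nearest the controls. The log2 fold change was 1.80 ± 0.50 (SE; 95% interval 0.63 to 2.96), and it missed the threshold (edgeR adjusted p = 0.0571). Leaving out control 1 gave an adjusted p of 0.0429 and leaving out heat 3 gave 0.00965. Leaving out control 2, control 3, heat 1 or heat 2 gave 0.211, 0.190, 0.196 and 0.183. Of the 18 alternatives, 7 called P4HB and 11 did not, RLE size factors among the latter (adjusted p = 0.0608). DESeq2, which called 27.5% of all genes, called P4HB as well (adjusted p = 0.00415). The gene spans 1121816 to 1131291 on chromosome 12, where RefSeq also annotates an overlapping long non-coding RNA. With the strand setting of the counting not given in the sources used here, reads of that transcript may be included.

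PDIA6, an isomerase that associates with BiP, stood at 313, 158 and 153 CPM in control 1, 2 and 3 and at 612, 579 and 248 CPM in heat 1, 2 and 3. Here control 1 was above heat 3, so the groups overlapped. A log2 fold change of 1.21 ± 0.49 (SE) did not pass (edgeR adjusted p = 0.131). PDIA6 (chromosome 3, 125752079 to 125774225) also overlaps an annotated long non-coding RNA.

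PDIA3, the partner of the 2 lectins, showed no separation of the groups. Its highest level of all was in a control, at 2621 CPM in control 1, while the other controls stood at 1222 and 1054 CPM. Heat 1, 2 and 3 stood at 2472, 2196 and 1139 CPM. Control 1 thus resembled heat 1 and 2, and heat 3 resembled control 2 and 3. The log2 fold change was 0.25 ± 0.53 (SE) with an interval of -0.99 to 1.48 (edgeR adjusted p = 0.764), and it turned to -0.025 without control 3. The gene lies on chromosome 1 at 127786174 to 127814096.

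Both lectins lay on chromosome 2, CALR at 66098263 to 66102074 and CANX at 78879031 to 78915828. CALR, which also buffers calcium in the ER lumen, was at 1881, 811 and 777 CPM in control 1, 2 and 3. In heat 1, 2 and 3 it was at 2585, 2447 and 1122 CPM, so control 1 again lay above heat 3. Its log2 fold change was 0.83 ± 0.55 (SE; edgeR adjusted p = 0.314). CANX was at 1239, 1131 and 930 CPM in the controls and at 1931, 1799 and 860 CPM in heat 1, 2 and 3. Its lowest library was heat 3. For CANX the log2 fold change was 0.48 ± 0.45 (SE; edgeR adjusted p = 0.473). The controls differed among themselves by 2.42 times for CALR and by 1.33 times for CANX, from the lowest to the highest.

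DNAJC10 is a J-domain protein that recruits BiP and reduces disulfides of proteins bound for degradation. It was the member whose heat libraries all lay below the controls. Control 1, 2 and 3 were at 276, 361 and 273 CPM, and heat 1, 2 and 3 at 232, 227 and 204 CPM. It was also the most even member within heat, where the highest library was 1.14 times the lowest. A log2 fold change of -0.46 ± 0.31 (SE) did not pass (edgeR adjusted p = 0.326), and it was below 0 in all 18 alternatives. The gene lies on chromosome 15 at 88198751 to 88256396.

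The 2 oxidases differed. ERO1A, the widely expressed form whose gene is also known to respond to hypoxia, was at 243, 233 and 193 CPM in control 1, 2 and 3. Heat 1 and 2, at 220.3 and 212 CPM, lay among the controls, and heat 3, at 127 CPM, was the lowest of all. Its log2 fold change was -0.26 ± 0.34 (SE; interval -1.05 to 0.54; edgeR adjusted p = 0.614), and none of the 18 alternatives called it. ERO1B, a paralogue known from secretory tissues such as the pancreas, was at 13.9, 21.8 and 17.7 CPM in control 1, 2 and 3 and at 41.1, 43.8 and 22.1 CPM in heat 1, 2 and 3. Heat 3 was above control 2 by a narrow margin, and the groups did not overlap. Its log2 fold change was 1.00 ± 0.36 (SE) and did not pass (edgeR adjusted p = 0.0989). ERO1B had between 208 and 943 reads per library, the fewest of the members, where counting error alone is 6.93% at the lowest count. ERO1A lies on chromosome 1 at 182268651 to 182318147, where 2 annotated pseudogenes overlap it, and ERO1B on chromosome 14 at 55056756 to 55122182.

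**Figure D2:**
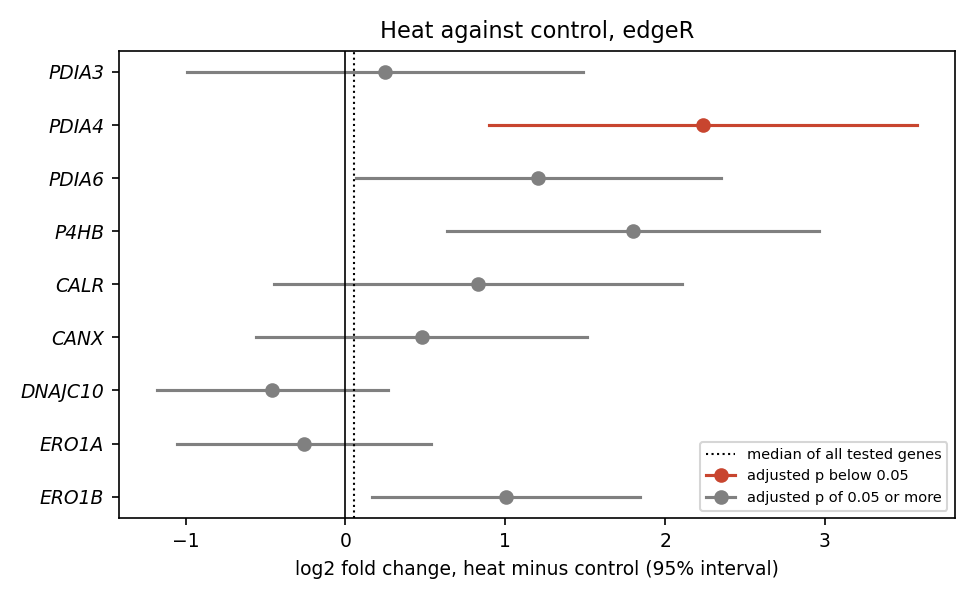
Log2 fold change, heat minus control, of the 9 members with 95% intervals from the edgeR fit; the dotted line is the median of all tested genes (0.05). PDIA4 alone is drawn as passing the adjusted threshold, and the intervals of PDIA3, CALR, CANX, DNAJC10 and ERO1A include 0.

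Ratios between members within a library do not depend on how libraries are scaled to each other. The pairs were picked after the values had been seen, so the ratios are given without a test. They compare reads, not molecules, because transcript lengths were not used. PDIA4 had 0.120, 0.143 and 0.158 reads per PDIA3 read in the 3 controls, against 0.559, 0.600 and 0.345 in heat 1, 2 and 3. Control 1 and heat 3 fell on the side of their own groups in this ratio. P4HB per PDIA3 read was 0.109, 0.162 and 0.199 in the controls and 0.435, 0.451 and 0.304 in heat. PDIA6 per PDIA3 read went from 0.131 ± 0.0127 to 0.243 ± 0.0235 (SD, n = 3), also without overlap. Within these isomerases, then, PDIA3 took a smaller share of the reads in every heat library. Of the reads of all 9 members, PDIA3 held 30.9% on average in controls and 23.8% in heat, while PDIA4 held 4.28 and 11.8% and P4HB 4.71 and 9.35%.

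ERO1B per ERO1A read was 0.0570, 0.0937 and 0.0917 in the controls, against 0.187, 0.207 and 0.175 in heat 1, 2 and 3. The heat libraries were close to each other in this ratio although heat 3 had the lowest level of ERO1A and, among heat libraries, of ERO1B. CALR per CANX read did not separate the groups, with 1.52, 0.717 and 0.835 in the controls and 1.34, 1.36 and 1.30 in heat. P4HB was also set against P4HA1, the gene of the alpha subunit with which it forms collagen prolyl 4-hydroxylase. That ratio was 0.202, 0.168 and 0.215 in the controls, against 0.798, 0.809 and 0.600 in heat 1, 2 and 3. Against a substrate of that enzyme, the collagen gene COL1A2, P4HB did not separate the groups. P4HB per COL1A2 read was 0.0111, 0.0702 and 0.0766 in the controls and 0.0258, 0.0265 and 0.0237 in heat, where control 1 lay below all heat libraries and control 2 and 3 above them. PDIA4 per HSPA5 read fell on the other side, at 0.212 ± 0.0172 in controls and 0.107 ± 0.0169 in heat (SD, n = 3), with no overlap. HSPA5 itself rose, with a log2 fold change of 3.31 ± 0.73 (SE; edgeR adjusted p = 0.0385).

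**Figure D3:**
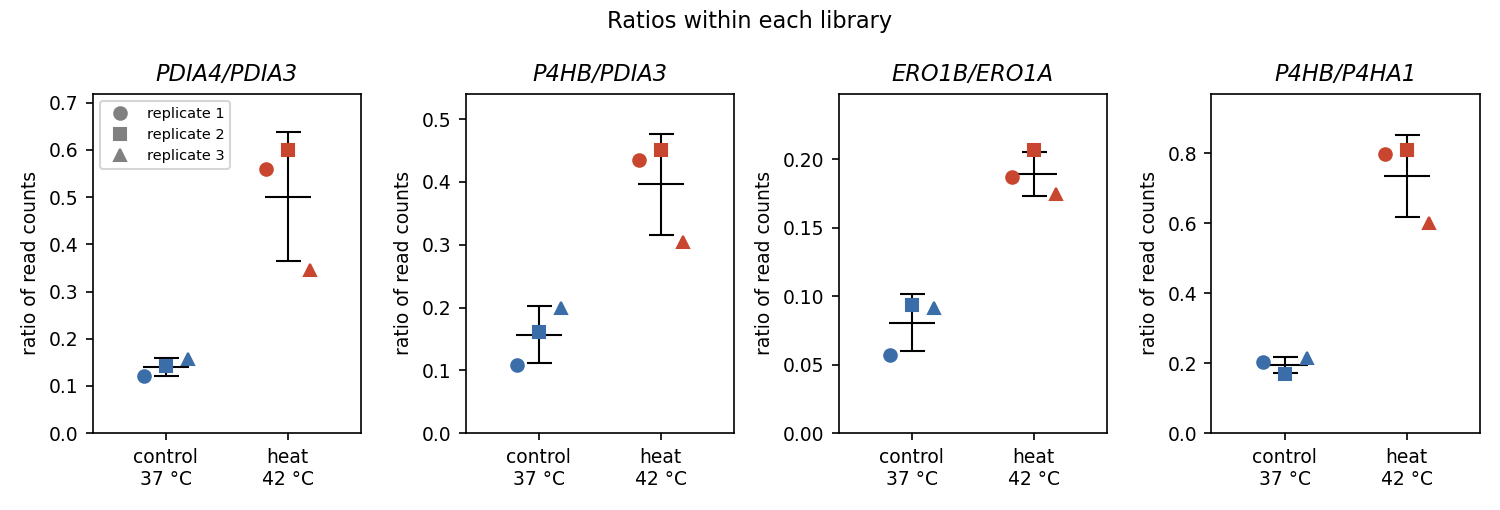
Ratios of read counts within each library (linear axes from 0) for PDIA4 over PDIA3, P4HB over PDIA3, ERO1B over ERO1A and P4HB over P4HA1; bars are means and whiskers 1 SD. In each panel the 3 heat libraries lie above the 3 controls, although the levels of PDIA3 and ERO1A themselves overlap between the groups. The panels are drawn only from ratios that separate the groups in this direction. CALR over CANX and P4HB over COL1A2, which overlap, and PDIA4 over HSPA5, which lies lower in heat, are not drawn. Of single tested genes, 20.9% had every heat library above every control, and the share over gene pairs was not computed.

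Because control 1 and heat 3 resembled each other, the members were also read in 2 sets of libraries, as values without a test. The sets were chosen from these same data. Members with like patterns (r of 0.995 between PDIA4 and P4HB) are not separate results, so counts of members are a description. Heat 1 and 2 averaged 7.90 times control 2 and 3 for PDIA4, 5.07 times for P4HB, 3.84 times for PDIA6 and 3.17 times for CALR. The corresponding ratio was 2.15 for ERO1B, 2.05 for PDIA3, 1.81 for CANX, 1.02 for ERO1A and 0.724 for DNAJC10. Heat 3 against control 1 gave much smaller or opposite values, with 1.25 for PDIA4, 1.21 for P4HB and 1.59 for ERO1B. It gave 0.791 for PDIA6, 0.596 for CALR, 0.694 for CANX and 0.435 for PDIA3. ERO1A stood at 0.520 and DNAJC10 at 0.738 in the same pair. Thus 3 of 9 members were higher in heat 3 than in control 1, where 53.8% of all tested genes were, and 8 of 9 were higher in heat 1 and 2 than in control 2 and 3, where 51.1% were. DNAJC10 was the member with nearly the same ratio in both sets. The stromal collagen transcripts differed between the same libraries. COL1A1 was at 17714 CPM in control 1 and 5579 CPM in heat 3, against 270.1 and 387 CPM in control 2 and 3 and 20725 and 17944 CPM in heat 1 and 2. LYZ, a leukocyte marker, reached 26.3 and 54.1 CPM in control 2 and 3, and no other library exceeded 0.848 CPM. The part of these cell type markers in the members' differences was not tested.

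**Figure D4:**
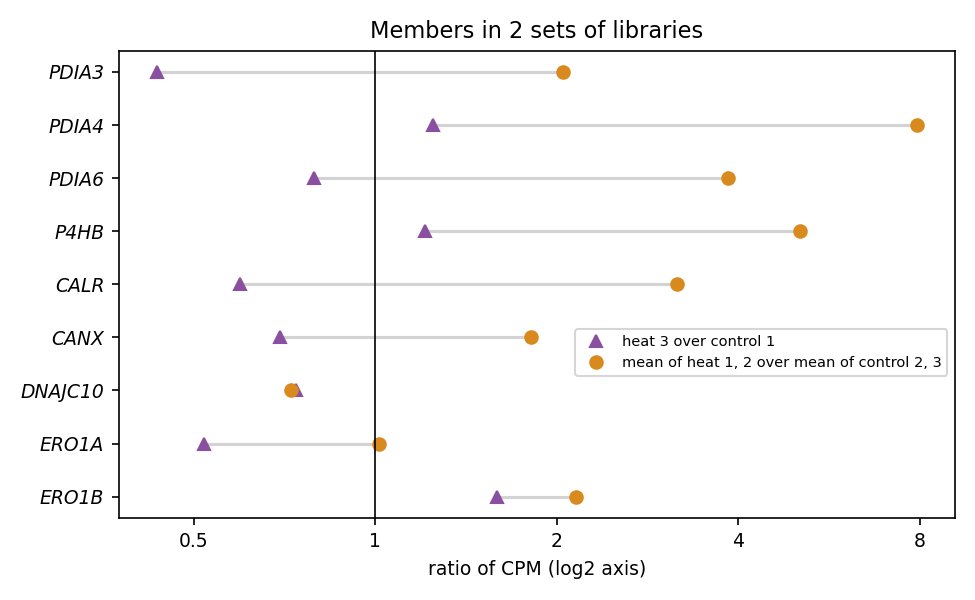
Ratio of CPM for each member (log2 axis) in 2 sets of libraries, heat 3 over control 1 (triangles) and the mean of heat 1 and 2 over the mean of control 2 and 3 (circles). The circles reach 7.90 for PDIA4 while the triangles lie between 0.435 and 1.59, and DNAJC10 has almost the same value in both.

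The other genes of the pathway were grouped into lists by function. Their calls are to be read beside those over all tested genes, 6.71% higher and 4.32% lower with all 6 libraries. Without control 1, edgeR called 3021 of all 15407 tested genes higher and 1901 lower. Without heat 3 it called 2817 of 15325 higher and 2713 lower. Among 13 tested proteins of the ER with a thioredoxin fold, beside the members, none passed edgeR's test, and the median log2 fold change was 0.03 (-0.02 with RLE size factors). TXNDC5, an isomerase with several thioredoxin domains, had the highest mean CPM of this list together with TMX1, a membrane-bound isomerase. TXNDC5 stood at 151, 44.1 and 50.7 CPM in control 1, 2 and 3 and at 338, 316 and 163 CPM in heat 1, 2 and 3 (log2 fold change 1.73 ± 0.57 SE, edgeR adjusted p = 0.0794). TMX1 went the other way without passing, from 214 ± 28.4 to 148 ± 7.02 CPM (SD, n = 3; edgeR adjusted p = 0.232). At an adjusted p below 0.05, edgeR called 4 of this list higher and 1 lower without control 1, and 1 higher and 1 lower without heat 3.

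Of 11 tested genes listed under ER oxidation and reduction beside ERO1, 2 rose and none fell. The 2 that rose were quiescin sulfhydryl oxidases, which introduce disulfides directly into substrate proteins, mostly in the Golgi and outside the cell. The list also held MIA3 and TXNRD1, which are not ER redox enzymes, and neither passed (edgeR adjusted p = 0.981 and 0.135). QSOX1 was at 62.7, 31.6 and 35.3 CPM in control 1, 2 and 3 and at 285, 257 and 98.95 CPM in heat 1, 2 and 3. Its log2 fold change was 2.31 ± 0.50 (SE; edgeR adjusted p = 0.0381). QSOX2, at a lower level, rose from 2.87 ± 1.91 to 12.2 ± 4.31 CPM (SD, n = 3; edgeR adjusted p = 0.0482). The median of the list was -0.12, and it was 0.02 when libraries were scaled by their totals only. With RLE size factors 1 of the list was called. Without control 1, edgeR called 3 higher and 1 lower, and without heat 3 it called 2 higher and 2 lower.

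Of 16 tested genes of the calnexin and calreticulin cycle, 3 rose, none fell and 13 did not pass. Over all tested genes 6.71% were called higher. The 3 that rose were MOGS, GANAB and MLEC. MOGS and GANAB encode glucosidases that trim the sugar chain to the form bound by the lectins. MLEC encodes malectin, a lectin for an earlier trimming product. PRKCSH, the other subunit of the GANAB enzyme, overlapped between the groups and did not pass (edgeR adjusted p = 0.163). MOGS was at 11.7, 4.41 and 4.71 CPM in control 1, 2 and 3 and at 57.3, 54.2 and 18.2 CPM in heat 1, 2 and 3, a log2 fold change of 2.64 ± 0.59 (SE; edgeR adjusted p = 0.0384). GANAB rose from 55.0 ± 29.3 to 249 ± 119 CPM (edgeR adjusted p = 0.0468) and MLEC from 173 ± 63.3 to 533 ± 113 CPM (SD, n = 3; edgeR adjusted p = 0.0444). The median log2 fold change of the list was 0.35. Without control 1, edgeR called 6 of these genes higher, and without heat 3 it called 4 higher and 1 lower. None of 12 subunits of the oligosaccharyltransferase, which attaches the sugar chain, passed edgeR's test, with a median of -0.23. STT3B, a catalytic subunit, went from 631 ± 231 to 587 ± 184 CPM and RPN2 from 242 ± 246 to 449 ± 190 CPM (SD, n = 3; neither passed). Without control 1, edgeR called 2 of these subunits higher, and without heat 3 it called 1.

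Among 5 tested partner subunits, TAPBP rose. It encodes tapasin, which forms a disulfide-linked pair with PDIA3 in the complex that loads peptides onto MHC class I. TAPBP was at 10.5, 4.37 and 7.49 CPM in control 1, 2 and 3 and at 42.5, 39.4 and 12.3 CPM in heat 1, 2 and 3 (log2 fold change 2.08 ± 0.55 SE, edgeR adjusted p = 0.0499). That p is at the threshold, and no partner subunit was called with RLE size factors, with the filter of 10 CPM in 3 libraries, with limma-voom or with limma on the authors' deposited signal. Without control 1, and likewise without heat 3, edgeR called 2 of the 5 higher. The alpha subunits that pair with P4HB were named after their values were seen. P4HA1 stood at 1189 ± 220.4 against 1049 ± 414 CPM and P4HA2 at 164 ± 58.6 against 418 ± 224 CPM (SD, n = 3). Neither passed (edgeR adjusted p = 0.798 and 0.125). Of 9 tested collagen genes, COL6A1 and COL6A2 rose, both at low levels in these counts, and none fell. All 9 had a log2 fold change above 0, with a median of 1.98. Among the controls, control 1 had the highest level of each of them, for COL1A1 17714 CPM against 270.1 and 387 CPM. Without control 1 edgeR called all 9 of them higher (19.6% of all genes higher), and without heat 3 it called 3 (18.4%).

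Of 19 tested genes of the BiP system, HSPA5 and CRELD2, a secreted stress-inducible protein, rose and none fell. Over all tested genes 6.71% were called higher. The median log2 fold change was 0.88, against 0.83 for the members. This list also held the prolyl isomerases PPIB, PPIC, FKBP2, FKBP7, FKBP9, FKBP10 and FKBP14, so its median is not that of BiP and its partners alone. HSP90B1, the ER form of HSP90, was at 3280.4, 1642 and 1299 CPM in control 1, 2 and 3 and at 6570 and 6124 CPM in heat 1 and 2, with 2087 CPM in heat 3. As with CALR and PDIA6, its control 1 was above heat 3, and it did not pass (edgeR adjusted p = 0.194). Of 13 tested regulators of the unfolded protein response, HERPUD1, which acts in ER-associated degradation, rose and none fell. With 6.71% of all tested genes called higher, 1 call among 13 is near that share. XBP1, a transcription factor that activates ER chaperone and isomerase genes, was at 107, 131 and 111 CPM in control 1, 2 and 3 and at 185, 185 and 136 CPM in heat 1, 2 and 3, without overlap (edgeR adjusted p = 0.236). DDIT3, known to activate ERO1A, was at 18.7, 21.3 and 19.7 CPM in the controls and at 66.4, 98.99 and 21.9 CPM in heat 1, 2 and 3 (edgeR adjusted p = 0.0722). Without control 1 edgeR called 8 genes of the BiP system and 6 regulators higher and 1 gene of the BiP system lower, and without heat 3 it called 6 and 5.

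Genes of the hypoxia response, to which ERO1A belongs, and of ER retrieval and translocation gave no call. Of 11 tested hypoxia genes none passed edgeR's test, and the median log2 fold change was -0.70. LDHA, lactate dehydrogenase, was at 1148, 1782 and 1835 CPM in control 1, 2 and 3 and at 431, 434 and 795 CPM in heat 1, 2 and 3 (edgeR adjusted p = 0.0622). HIF1A, the oxygen-regulated transcription factor, was at 1305 ± 191 against 695 ± 291 CPM (SD, n = 3; edgeR adjusted p = 0.177). Without control 1, edgeR called 4 hypoxia genes lower and none higher, and without heat 3 it called 2 higher and 2 lower. DESeq2 called 1 hypoxia gene higher and 4 lower. Of 15 tested receptors and translocon subunits none passed either, with a median of -0.12. Without control 1, 3 of them were called higher and 2 lower, and without heat 3 only lower calls were made, 2 in number. SEC61A1, the pore subunit, was at 224 ± 111 against 431 ± 78.4 CPM and SSR1, of the translocon-associated complex, at 191 ± 132 against 337 ± 57.7 CPM (SD, n = 3). Leaving out control 2, control 3, heat 1 or heat 2 removed the calls of every one of these lists.

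**Figure D5:**
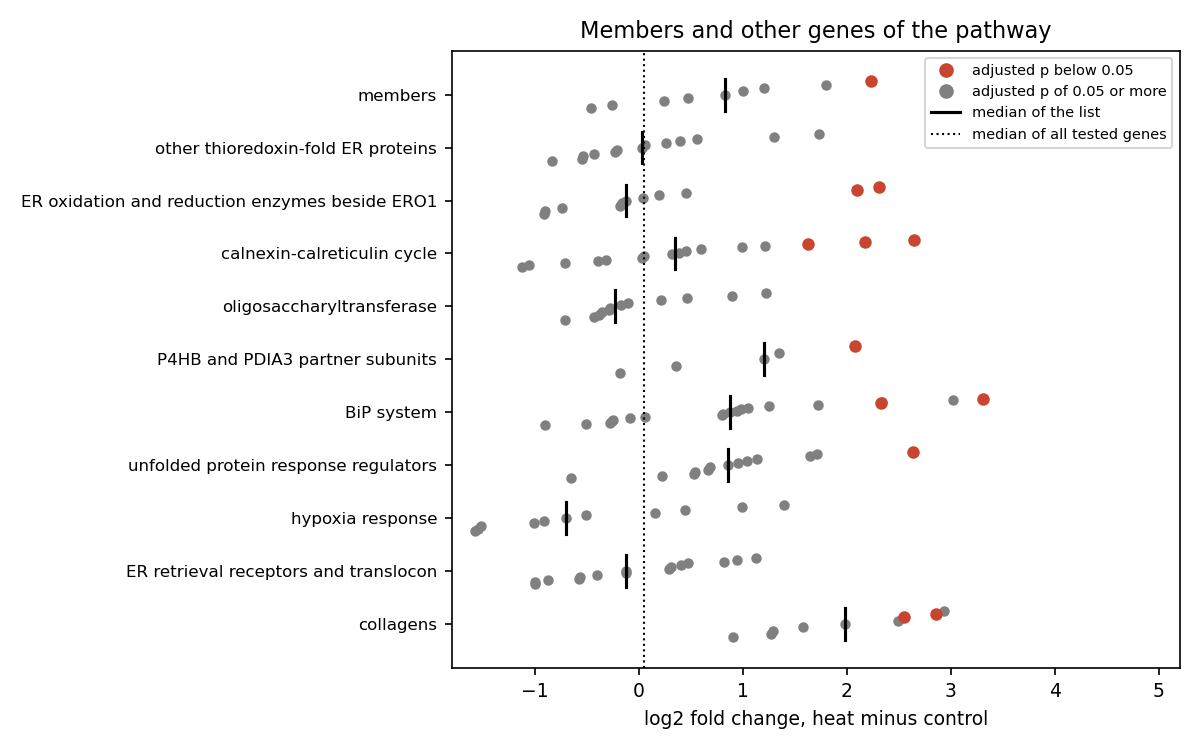
Log2 fold change, heat minus control, of every tested gene in the members and 10 further lists; short vertical bars are list medians and the dotted line is the median of all tested genes. Genes past the adjusted threshold are all to the right, led by HSPA5 at 3.31, and the medians run from -0.70 for the hypoxia response to 1.98 for collagens.

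The genes most like the members in pattern were sought among 7139 tested genes with a symbol and a mean log2 CPM of at least 3. Likeness was Pearson's r over the 6 libraries to the mean standardized log2 CPM of the 9 members. That mean joins members of unlike pattern, with r of -0.657 between PDIA4 and DNAJC10 and 0.051 between PDIA4 and ERO1A. In the mean, heat 3 (-0.706) lay beside control 3 (-0.739), whereas PDIA4 had heat 3 above every control. Genes like the mean are thus not genes like each member. With so many candidates and 6 libraries, very high values arise easily, and they are given as a description with no p. The 5 highest were GLA (alpha-galactosidase A, 0.998), MEST (0.996), ZMYM2 (0.994), KIT (0.993) and ZFP28 (0.992). KIT, a receptor tyrosine kinase, was at 89.8, 43.0 and 32.0 CPM in control 1, 2 and 3 and at 186, 186 and 29.0 CPM in heat 1, 2 and 3. None of the 5 passed the edgeR test (adjusted p between 0.231 and 0.471).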

How the data were processed

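Stranded mRNA libraries were read as paired ends, and the submitters' processing notes name FastQC 0.11.4, Trim Galore and STAR with the Sscrofa11.1 assembly. The authors deposited raw counts per Ensembl gene, with counting tool and annotation release not given in the sources used here. Their deposited normalized signal is those counts divided by the authors' 1 size factor per library for 13298 genes; 100% of its values gave whole reads within a tolerance of 1e-06.

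The members and lists were chosen with earlier results of these data known. Symbols came from a reference table for 15623 of 35670 identifiers, and coordinates from RefSeq by symbol. Heat was compared with control in edgeR 4.0.16 (R 4.3.3; TMM, filterByExpr with minimum count 10, robust quasi-likelihood F test, two-sided) over 14242 genes, with Benjamini-Hochberg adjustment. SE is |log2 fold change| over the square root of F. Named genes are the members, called list genes, the 2 of highest mean CPM where a list had none called, HSPA5, HSP90B1, XBP1, DDIT3, COL1A1, LYZ and the 5 most alike in pattern; P4HA1 and P4HA2 were added after their values were seen.

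This fit was tested on simulated data. Alternatives were other scalings and filters, the replicate block, leaving out libraries, DESeq2 1.42.0, and limma 3.58.1 on voom weights or on log2 of the deposited signal with a pseudocount of 1 or 0.5. Alternatives chosen after seeing the data were one fit without control 1 and heat 3, and edgeR on the recovered reads, which called 12.3% of 13208 genes.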

Additional observations from a re-analysis of the deposited data

How the results depend on the processing

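Over the whole table edgeR called 956 genes higher and 615 lower in heat, and 1 member higher (PDIA4) and 0 lower. Higher calls were 1583 with library totals only, 1607 with no filter on low counts, 532 with at least 10 CPM in 3 libraries, 2118 with DESeq2 and 9 at an adjusted p below 0.01. Lower calls were 396 with that 10 CPM filter, 1792 with DESeq2 and 1 at the stricter p. Higher calls were 60.9% of all calls with TMM and 79.2% with library totals only, which moved the median log2 fold change of all genes from 0.05 to 0.17. They were 52.7% with RLE size factors, with a median of -0.004, and 54.2% with DESeq2, with a median of -0.003. Members called higher were 0 with RLE size factors, 0 with the 10 CPM filter, 0 with limma on the authors' normalized signal at either pseudocount, 0 at an adjusted p below 0.01, and 2 (PDIA4 and P4HB) with library totals only, with no filter and with DESeq2. Leaving out 1 library gave between 0 and 3021 genes higher, between 0 and 2713 lower, and between 0 and 4 members higher. Without both control 1 and heat 3 the counts were 6285 higher and 5857 lower, with 7 members higher and 1 lower. With the replicate block, edgeR called 2104 genes higher, 1300 lower and 2 members higher. The labels do not say whether the replicate numbers pair the libraries, and the correlations of deviations cannot decide it. Deviations of same-numbered libraries from their group means correlated at 0.299, -0.232 and 0.223. Control 1 correlated best with heat 1 and control 3 with heat 3, but control 2 also correlated best with heat 3 (0.287). With 3 libraries per group these deviations sum to 0, so the correlations constrain each other. The log2 fold change reversed for PDIA3 without control 3 (-0.025; between -0.025 and 0.743 over the fits that leave out 1 library) and for ERO1A without control 1 and heat 3 (8.91e-04), and the cause was not tested. The other 7 members kept their direction in all 18 alternatives. Counting error was small beside the spread between libraries: 8 members had at least 3076 reads in every library, a counting error of at most 1.80%, and edgeR's common coefficient of variation was 43.6%.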
